A study of Homo sapiens with 4 samples.

Results

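The genes described here make, desaturate and elongate fatty acids: ACLY, ACACA, ACACB, FASN, SCD, FADS1, FADS2, ELOVL5, ELOVL6 and SREBF1. They were taken by symbol, 10 of the 56832 genes in the deposited table, and all 10 were found there and passed the filter of a mean normalised count of at least 10 that left 20250 genes for testing. RNA was sequenced from A375, an established human melanoma cell line, labelled wild type and kept in DMEM with 10% fetal bovine serum. The 2 treated libraries came from cells given 1 mM octanoate, a medium-chain saturated fatty acid, for 48 h, and the 2 vehicle libraries from cells given the solvent isopropanol for 48 h. All libraries thus come from a single line, and nothing in the labels says whether replicates were separate cultures, so p-values measure only the spread between these libraries, which may be technical. The stated aim of the series was to find genes and signatures raised by the treatment.

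Cells build fatty acids in the cytosol from citrate. ACLY cleaves citrate to acetyl-CoA, the acetyl-CoA carboxylases ACACA and ACACB turn this into malonyl-CoA, and FASN joins the units into palmitate. Elongases of the ELOVL family lengthen the chain in the endoplasmic reticulum, and SCD and the FADS desaturases put in double bonds. SREBF1 encodes SREBP-1, a membrane-bound transcription factor that is released by proteolysis and drives many of these genes. Many tumours keep this pathway active although fatty acids are also supplied by serum.

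RNA of 6 of the 10 genes was lower, and of none higher, in the octanoate libraries at a limma adjusted p under 0.05. FADS2 and SREBF1 fell furthest, by 37.1% and 34.6%, FASN and SCD each fell by 23.9%, and ELOVL6 and ACLY fell by 15.7% and 15.5%. ACACA, ACACB, FADS1 and ELOVL5 did not pass the test. Among all 20250 tested genes 13.7% were called lower, 16.2% higher and 29.9% in either direction. Calls depend on depth, so the closer background is that of the 9003 genes with a mean of at least 1000, of which 20.0% were called lower, 18.1% higher and 38.1% in either direction. Of the 9 described genes in that range (all but ACACB), 6 were called lower. With trends on GC content and exon length removed from each library, which only the 15163 annotated genes allow, 42.5% of the called genes were higher, against 52.6% in the same genes with the trends kept. The same 6 of the 10 genes were then called lower, where 26.3% of those 15163 genes were called lower.

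Deposited values are read counts divided by 1 size factor per library (0.923 to 1.04), so a normalised count is close to a number of reads. Whole reads recovered from them came to between 67785956 and 78005035 per library. Replicates differed by more than sampling noise, with a chi-square per degree of freedom of 4.77 between the vehicle and 6.5 between the octanoate libraries. The labelled cell type was checked against 12 melanocytic and neural crest markers, whose summed normalised count was between 95889 and 113104 per library. SOX10, which specifies the neural crest lineage, was at 34072 to 41363, and AXL was at 22061 to 30450. The pigment genes of the set were scarce, with TYR at no more than 3.93 in any library. PMEL was at 65.8 to 98.2, MLANA at 34.9 to 52.0 and DCT at 10.6 to 30.0. Of the 11 markers tested 6 were called, where 29.9% of all tested genes were. MITF, S100B, ERBB3 and NGFR were called lower, and AXL and PMEL higher. Adipocyte markers, of interest because fat cells make fatty acids, summed to between 63 and 109 over 5 genes, with CIDEC called higher and ADIPOQ at 0 in vehicle 2 and octanoate 2. Hepatocyte markers summed to between 6 and 29 over 4 genes, with TTR called lower and APOA1 at 0 in every library, and immune markers to between 24 and 32 over 4 genes with none called. Keratinocyte and epithelial markers went from 1166 and 988 in vehicle to 307 and 266 in octanoate, nearly all of it KRT14. Endothelial markers went the other way, from 207 and 201 to 347 and 338, with PECAM1 and VWF called higher. Most of that rise was PECAM1, from 121 and 122 to 249 and 221. The remaining marker of this set, CDH5, was not called, at 20.6 and 14.5 in vehicle and 8.66 and 21.7 in octanoate. Fibroblast markers summed to 1307 in both vehicle libraries and to 1140 and 1108 in octanoate, with COL1A1 called lower. The part of these marker shifts in the results below was not tested. In bulk RNA, fewer cells of a type and less RNA per cell cannot be told apart.

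Promoter windows of 4 of the genes are shown because these genes carry the main contrasts. SREBF1 encodes the regulator, and SCD had the most RNA per kilobase of exon of the genes described. FADS2 and FADS1 are neighbours that behaved differently. Each window runs from 250 bases before to 50 after a RefSeq start in GRCh38.p14 and is written 5′ to 3′ on the gene's strand. Capitals mark matches on either strand to the GC box GGGCGG, bound by Sp1-type factors, and the CCAAT box CCAAT, bound by NF-Y, both known partners of SREBP. SREBF1 lies at chr17:17836937-17837236 on the minus strand, SCD at chr10:100346983-100347282 on the plus strand, FADS2 at chr11:61816154-61816453 on the plus strand and FADS1 at chr11:61816954-61817253 on the minus strand.
SREBF1: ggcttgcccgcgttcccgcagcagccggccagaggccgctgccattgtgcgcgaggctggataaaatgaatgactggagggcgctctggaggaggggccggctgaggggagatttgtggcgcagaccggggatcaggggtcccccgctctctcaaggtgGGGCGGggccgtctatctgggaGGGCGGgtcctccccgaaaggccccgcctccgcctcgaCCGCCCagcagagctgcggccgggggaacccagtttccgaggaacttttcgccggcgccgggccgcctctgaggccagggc
SCD: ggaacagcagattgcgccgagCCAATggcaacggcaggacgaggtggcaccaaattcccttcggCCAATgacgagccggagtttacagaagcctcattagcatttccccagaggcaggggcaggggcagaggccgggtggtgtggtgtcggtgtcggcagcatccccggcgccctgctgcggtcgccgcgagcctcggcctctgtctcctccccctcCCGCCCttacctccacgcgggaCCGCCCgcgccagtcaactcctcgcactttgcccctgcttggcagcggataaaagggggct
FADS2: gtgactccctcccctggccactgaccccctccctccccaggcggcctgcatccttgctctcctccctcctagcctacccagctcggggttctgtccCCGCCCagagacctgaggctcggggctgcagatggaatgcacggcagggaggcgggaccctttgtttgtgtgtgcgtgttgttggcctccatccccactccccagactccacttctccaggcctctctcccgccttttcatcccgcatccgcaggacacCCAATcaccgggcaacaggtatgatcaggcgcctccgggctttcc
FADS1: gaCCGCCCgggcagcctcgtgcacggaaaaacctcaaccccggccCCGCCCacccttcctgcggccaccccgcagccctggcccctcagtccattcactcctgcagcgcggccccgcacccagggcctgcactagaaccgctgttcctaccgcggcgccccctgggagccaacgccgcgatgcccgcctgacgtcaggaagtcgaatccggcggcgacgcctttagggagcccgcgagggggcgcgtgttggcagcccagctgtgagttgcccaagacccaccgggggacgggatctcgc

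RefSeq windows matched 9 of the 10 genes, all but FASN, with 14 windows in all because some genes have more than 1 start. The sterol regulatory element, searched as TCACNCCAC on both strands, was in none of the 14 windows and in 1.13% of the 35116 windows of all genes. That share is so low that its absence from 14 windows says little about such sites in these genes. The E-box CACGTG was in 1 of the 14, that of ELOVL5, against 7.26% of all windows. A CCAAT box was in 8 of the 14 windows, from ACACA, ACACB, ACLY, ELOVL5, FADS2 and SCD, against 34.6% of all windows. SCD had 2 such boxes and FADS2 had 1, while SREBF1 and FADS1 had none in the windows shown. GC boxes were in 10 of the 14, from every gene with a window but ELOVL5, against 45% of all windows. Some windows of a gene overlap, so the 14 are not independent. Genes that fell and genes that were not called thus both held GC and CCAAT boxes, and a match to letters is a description, not a binding site.

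SREBF1 (chromosome 17, bases 17810399 to 17837002 in GENCODE 29, minus strand) was measured at 17289 and 16367 normalised counts in the vehicle libraries and at 11308 and 10709 in the octanoate libraries. Both octanoate libraries lay far below both vehicle libraries. The group means were 16828 ± 652 and 11009 ± 423 (SD, n = 2 each), a log2 change of -0.61 with an SE of 0.06 (limma adjusted p 1.18e-08). Among the 9003 genes with a mean of at least 1000, only 1.00% fell as far or further. The table gives 1 value per gene, so transcripts for the isoforms of SREBP-1 cannot be told apart. Exons of SREBF1 share 556 bases (6.92% of its exon length) with RAI1 on the opposite strand, and RAI1 also fell, by 0.36 (with SE 0.06, limma adjusted p 3.02e-05). Whether counting used strand is not given in the sources used here, so the part of these shared bases in the result was not tested.

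**Figure D1:**
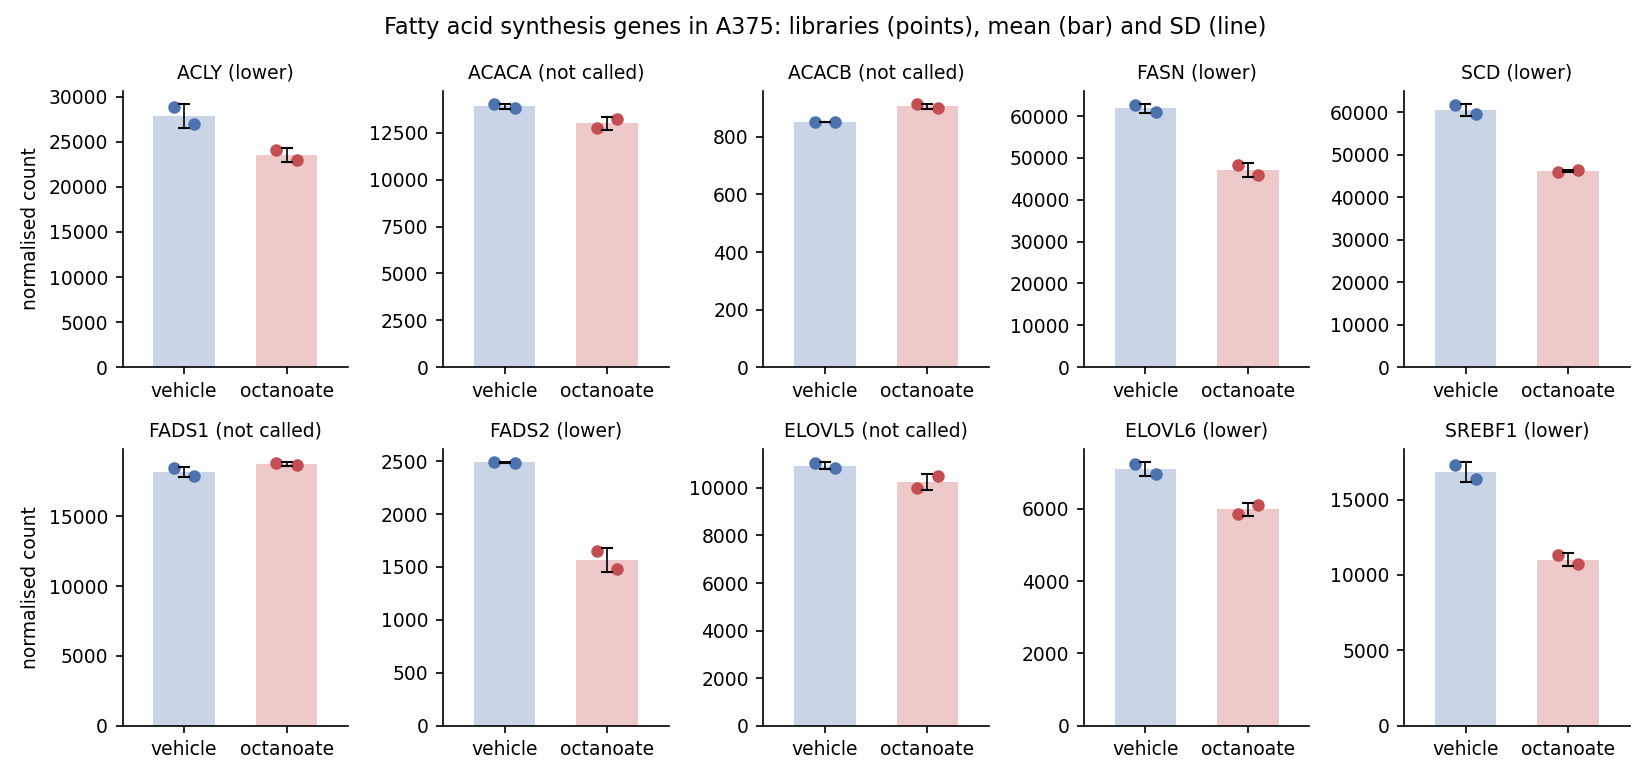
Normalised counts of the 10 genes, 1 panel per gene with its own axis from 0: points are libraries, bars the mean of 2 libraries and lines the SD. The 6 panels headed "lower" show both octanoate libraries well below both vehicle libraries (SREBF1 at 11308 and 10709 against 17289 and 16367), while in ACACA, ACACB, FADS1 and ELOVL5 the groups lie close together.

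At the entry of the pathway, ACLY (chromosome 17, 41866908 to 41930542, minus strand) was at 28845 and 26970 normalised counts in vehicle and at 24121 and 23015 in octanoate. The groups did not overlap, although vehicle 2 was closer to octanoate 1 than in the genes with larger falls. Exons of ACLY share 156 bases with the antisense gene AC125257.2. The log2 difference was -0.24 (with SE 0.06, limma adjusted p 0.00257). This call rested on octanoate 2, since without that library the difference was -0.21 and the adjusted p 0.0554. ACACA (chromosome 17, 37084988 to 37406818), the cytosolic carboxylase that supplies malonyl-CoA for synthesis, was at 14015 and 13820 in vehicle and at 12769 and 13227 in octanoate. Its octanoate libraries were the lower ones, but the log2 difference of -0.10 (95% interval -0.21 to 0.02, limma adjusted p 0.193) did not pass the test. It passed with the replicate number as a block, at an adjusted p of 0.0381.

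ACACB (chromosome 12, 109116595 to 109268226), the carboxylase of the outer mitochondrial membrane whose malonyl-CoA restrains fatty acid import into mitochondria, was the least abundant of the 10. It was at 851 and 853 normalised counts in vehicle and at 912 and 900 in octanoate. The higher values were those of octanoate, with a log2 difference of 0.09 (95% interval -0.07 to 0.25, limma adjusted p 0.430). The groups did not overlap for all 10 genes, called or not, and the same held for 63.1% of all tested genes.

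FASN (chromosome 17, 82078333 to 82098332, minus strand), the multi-enzyme protein that assembles palmitate, was at 62654 and 61103 normalised counts in vehicle and at 48381 and 45858 in octanoate. The gap between the groups was several times the spread within either. Its log2 difference was -0.39 (with SE 0.06, limma adjusted p 1.82e-05), and 3.13% of the genes with a mean of at least 1000 were as low or lower. No exon of FASN overlaps that of another gene in GENCODE 29.

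SCD (chromosome 10, 100347124 to 100364834, plus strand), which makes monounsaturated from saturated acyl-CoA, was at 61631 and 59638 normalised counts in vehicle and at 45948 and 46386 in octanoate. Both octanoate libraries were again below both vehicle libraries, and they differed from each other less than the vehicle libraries did. The log2 difference of -0.39 (with SE 0.06, limma adjusted p 1.47e-05) was close to that of FASN. SCD shares 1081 bases at 96.7% identity with the pseudogene SCDP1, which was at no more than 5.89 normalised counts in any library. A further 1520 bases at 95.5% identity are shared with the non-coding AC126365.1, so the count of SCD carries that uncertainty.

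FADS1 and FADS2 encode the desaturases that act in turn on polyunsaturated fatty acids, and they lie on opposite strands of chromosome 11. FADS2 (61792980 to 61867354, plus strand) was at 2489 and 2485 normalised counts in vehicle and at 1646 and 1485 in octanoate. The vehicle libraries were nearly equal and the octanoate libraries were both clearly lower. This was the largest relative fall of the 10 genes, a log2 change of -0.67 with an SE of 0.07 (limma adjusted p 4.95e-08), reached or exceeded by 0.789% of the genes with a mean of at least 1000. FADS1 (61799625 to 61829318, minus strand) was at 18437 and 17922 in vehicle and at 18847 and 18660 in octanoate. Here the octanoate values were the slightly higher ones, and the log2 difference was 0.04 (95% interval -0.07 to 0.16, limma adjusted p 0.595).

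Exons of FADS1 and FADS2 share 490 bases, on opposite strands. FADS2 also shares 49 bases with FEN1, a flap endonuclease gene of DNA replication on the same strand, which went from 14903 and 14315 normalised counts in vehicle to 11426 and 10702 in octanoate, a log2 change of -0.40 with an SE of 0.06 (limma adjusted p 7.71e-06). The part of these shared bases in the values of FADS2 was not tested. FADS3, the third gene of the cluster, was at 4089 and 3609 in vehicle and at 3598 and 3563 in octanoate, with a log2 difference of -0.10 that did not pass the test (limma adjusted p 0.259). For FADS3 this value rested on the vehicle libraries, at -0.01 without vehicle 1 and -0.19 without vehicle 2, and it passed with GC and length trends removed (-0.15, adjusted p 0.0151).

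Between the elongases, ELOVL6 (chromosome 4, 110045846 to 110199199), which extends palmitate to stearate, was the lowered one. It was at 7240 and 6974 normalised counts in vehicle and at 5869 and 6118 in octanoate. The octanoate libraries both lay below the vehicle libraries, with a log2 change of -0.25 with an SE of 0.06 (limma adjusted p 0.00205). ELOVL5 (chromosome 6, 53267398 to 53349179), which extends polyunsaturated chains, was at 11038 and 10826 in vehicle and at 10001 and 10481 in octanoate. The distance between its groups was comparable with the spread of the octanoate libraries, and its log2 difference of -0.09 (95% interval -0.21 to 0.02, limma adjusted p 0.221) did not pass the test. With the replicate block and GC and length trends removed together, ELOVL5 passed at an adjusted p of 0.0124.

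The median log2 difference of the 10 genes was -0.25, against 0.01 over all tested genes and -0.02 over those with a mean of at least 1000. The calls of 4 genes depended on how variance information was shared between genes. When the variance prior had no intensity trend, FADS2 and SREBF1 remained called, and the limma adjusted p was 0.0519 for SCD, 0.0575 for FASN, 0.112 for ELOVL6 and 0.134 for ACLY. The authors' deposited table, made with DESeq2, called the same 6 genes lower and none higher: it lists log2 fold changes of -0.67 (standard error 0.09) for FADS2, -0.61 (0.06) for SREBF1 and -0.39 (0.05) for both FASN and SCD. No gene of the 10 was higher at an unadjusted limma p under 0.05, and 0 were called higher by edgeR or DESeq2 on the recovered reads.

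**Figure D2:**
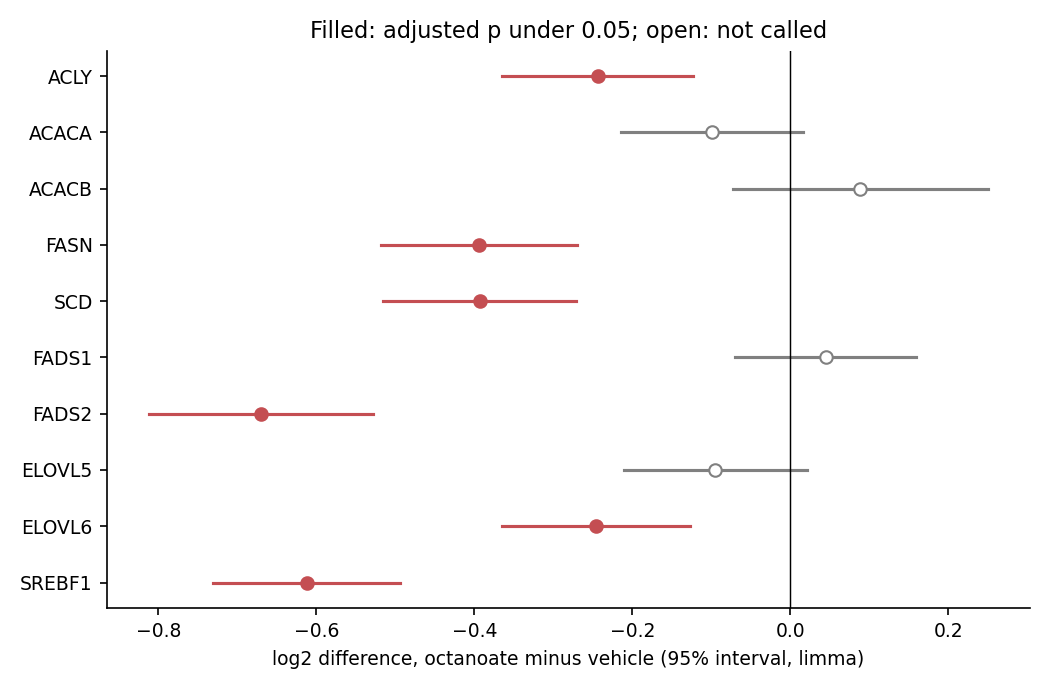
Log2 difference of each gene, octanoate minus vehicle, with its 95% interval from limma; filled points passed an adjusted p of 0.05. FADS2 (-0.67) and SREBF1 (-0.61) stand furthest from 0, and the intervals of ACACA, ACACB, FADS1 and ELOVL5 include 0.

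Levels of different genes can be compared only per length, here as normalised counts per kilobase of merged exons in GENCODE 29. SCD was highest, at 11494 and 11122 per kilobase in vehicle and 8569 and 8651 in octanoate. FASN followed at 6691 and 6525 in vehicle and ACLY at 5529 and 5170, so in vehicle these 3 genes were separated by more than their spread. SCD, FASN and ACLY exceeded 98.3%, 96.8% and 96.1% of the 14162 protein-coding genes tested. The order then ran ELOVL5 (2867 per kilobase as the vehicle mean), SREBF1 (2096), FADS1 (1777), ACACA (1070), ELOVL6 (974), FADS2 (226) and ACACB (58.7). In octanoate SREBF1, at 1371, was below FADS1, at 1833, and the other ranks were unchanged. Per kilobase of the longest coding transcript, FADS1 (4018 as the vehicle mean) and SREBF1 (3957) came before ELOVL5 (3548), so the order of these 3 genes rests on the gene model. On that same measure FASN and ACLY had vehicle means of 7225 and 6432, but their octanoate means, 5502 and 5432, were close together.

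**Figure D3:**
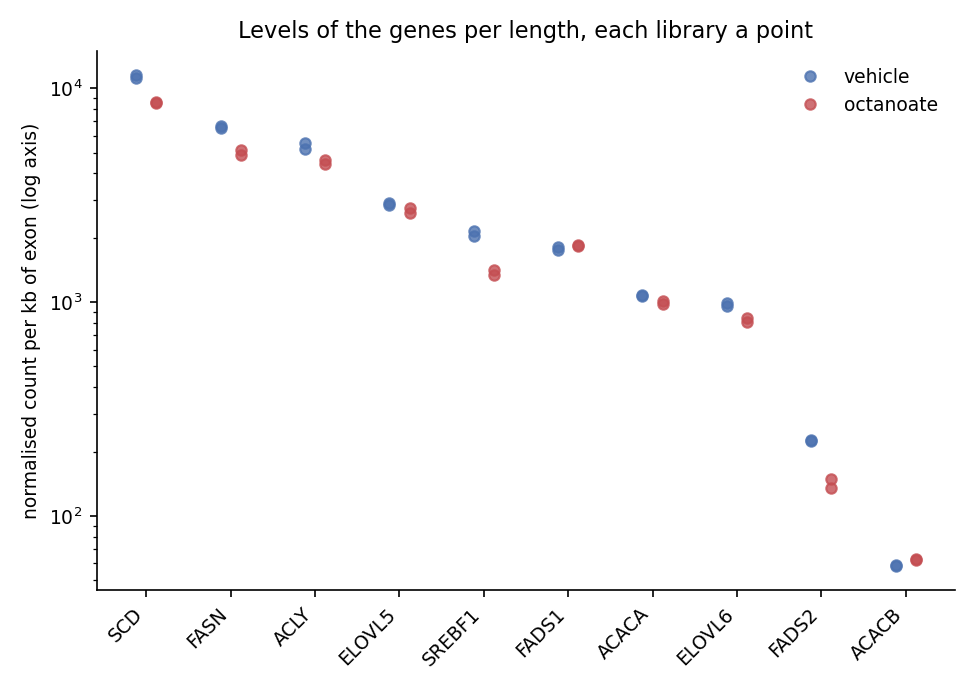
Normalised count per kilobase of exon on a log axis, with each library as a point and genes ordered by their vehicle mean. SCD is highest and ACACB lowest in every library, and the octanoate points of SREBF1 fall below those of FADS1.

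Ratios of related genes within a library do not depend on how libraries are scaled. With 2 libraries in each group, 0.333 is the smallest two-sided p of an exact permutation test. Each of the 5 ratios compared had that p, so their values are a description. Reads of FADS1 were 7.41 and 7.21 times those of FADS2 in the vehicle libraries and 11.4 and 12.6 times in the octanoate libraries. The log2 ratio thus moved by 0.71, from 2.87 ± 0.03 to 3.58 ± 0.09 (SD, n = 2 each), the largest shift of the 5.

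SREBF1 was compared with SREBF2, which encodes the SREBP of sterol synthesis. Their log2 ratio was 0.57 and 0.61 in vehicle and 0.00 and -0.03 in octanoate, so that their read counts, unequal in vehicle, were nearly equal after octanoate. SREBF2 itself was at 11673 and 10694 normalised counts in vehicle and at 11308 and 10937 in octanoate, with overlapping groups (log2 difference -0.01, 95% interval -0.13 to 0.11, limma adjusted p 0.949). SCD was 107 and 102 times its relative SCD5, a desaturase strongly expressed in brain, in vehicle and 76.1 and 70.0 times in octanoate. SCD5 was at 576 and 583 normalised counts in vehicle and at 604 and 662 in octanoate, a log2 difference of 0.12 (limma adjusted p 0.316) that was 0.06 without octanoate 2 and 0.19 without octanoate 1. The log2 ratio of ACACA to ACACB moved by -0.19 and that of ELOVL5 to ELOVL6 by 0.15, in both cases with no overlap between the groups.

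**Figure D4:**
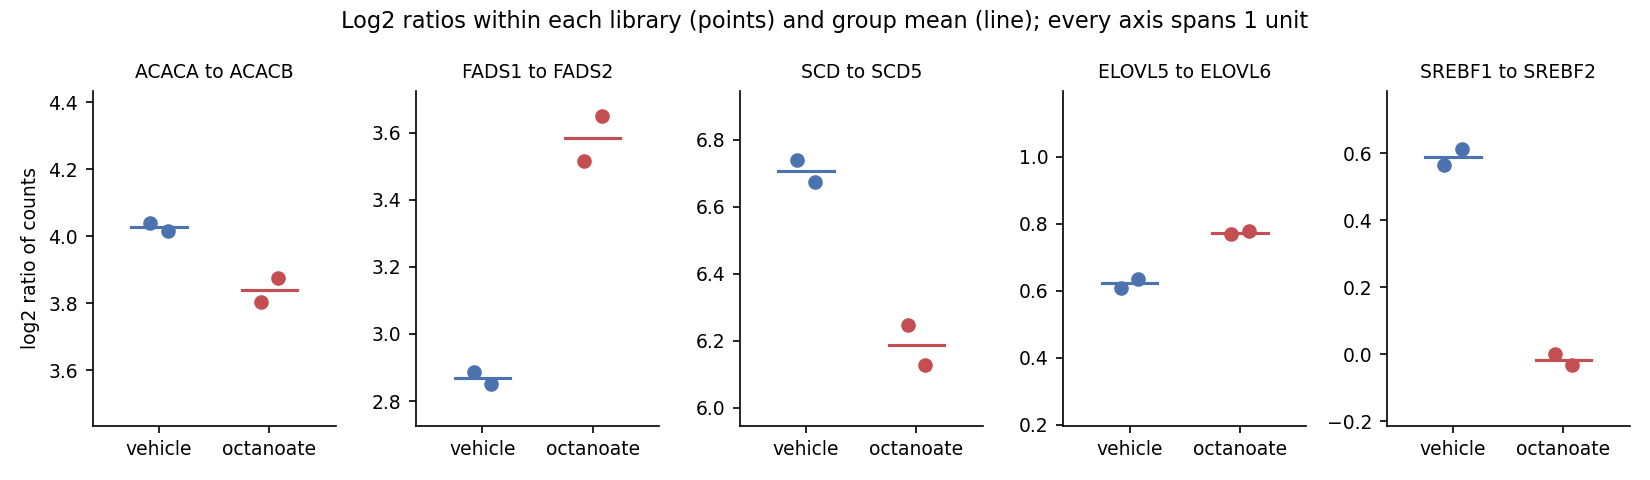
Log2 ratio of the normalised counts of 5 pairs of related genes: points are libraries, lines group means, and every vertical axis spans 1 log2 unit. FADS1 to FADS2 moves up by 0.71, SREBF1 to SREBF2 down by 0.61 and SCD to SCD5 down by 0.52, each with no overlap between the groups.

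The rest of the pathway was described with 8 lists holding 99 genes, of which 96 were tested. Over all lists, 19 genes were called higher, 17 lower and 60 not called, so 36 of 96 were called. Of all tested genes 29.9% were called, and 38.1% of those with a mean of at least 1000, which some list genes do not reach. The shares to set beside the counts of each list are 16.2% higher and 13.7% lower over all tested genes. At a mean of at least 1000 these shares are 18.1% and 20.0%. The lists therefore did not move 1 way as a whole, and what follows gives the genes by role.

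SREBP-1 is held in the endoplasmic reticulum by INSIG proteins and escorted for cleavage by SCAP. Of the 18 genes for this machinery and for other lipogenic transcription factors, 2 were called higher, 3 lower and 13 not called, with a median log2 difference of 0.03. INSIG1, itself a target of SREBP, was at 4565 and 4709 normalised counts in vehicle and at 3837 and 3766 in octanoate, a log2 change of -0.29 with an SE of 0.06 (limma adjusted p 0.000598). NR1H3, which encodes the oxysterol receptor LXR-alpha, an activator of SREBF1 transcription, changed the other way. It was at 2007 and 1830 in vehicle and at 2644 and 2474 in octanoate, with both octanoate libraries higher and a log2 change of 0.42 with an SE of 0.07 (limma adjusted p 4.49e-05). INSIG2 and SCAP had overlapping groups, with log2 differences of 0.04 and 0.07. The partner receptor gene NR1H2 had a log2 difference of 0.15 that did not pass the test (limma adjusted p 0.0804), but it passed without octanoate 2, at 0.23 (adjusted p 0.0239), and with the replicate block (0.0027). The difference for NR1H2 was 0.07 (adjusted p 0.609) without octanoate 1 and 0.08 (0.166) with GC and length trends removed, and with those trends removed and the block together it did not pass (0.0794). MLXIPL, which encodes the glucose-responsive factor ChREBP, was scarce, at 44.2 and 49.4 in vehicle and 63.5 and 71.5 in octanoate (limma adjusted p 0.0811). Without vehicle 2, 3 genes of this list were called in place of 5.

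Among 10 tested SREBP targets of sterol synthesis and uptake, 4 were called lower, 1 higher and 5 not called, with a median of -0.12. IDI1, an isomerase of the isoprenoid part of sterol synthesis, was at 4484 and 4750 normalised counts in vehicle and at 3518 and 3272 in octanoate, a log2 change of -0.44 with an SE of 0.06 (limma adjusted p 5.43e-06). HMGCS1, which acts earlier in the same route, was at 3489 and 3601 in vehicle and at 2813 and 2624 in octanoate, and fell by 0.38 on the log2 scale (SE 0.06, limma adjusted p 4.32e-05). LSS, which closes the sterol ring and was named after its values were seen, was at 3982 and 3870 in vehicle and at 3272 and 3222 in octanoate, a log2 change of -0.27 with an SE of 0.06 (limma adjusted p 0.00109). In each of these 3 genes both octanoate libraries lay below both vehicle libraries.

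Supply of substrate and NADPH was represented by 10 genes, of which 4 were called lower and 1 higher, with a median of -0.01. IDH1, the cytosolic isocitrate dehydrogenase that makes NADPH, was at 14591 and 13954 normalised counts in vehicle and at 11414 and 11593 in octanoate, a log2 change of -0.31 with an SE of 0.06 (limma adjusted p 0.000142). SLC25A10, the mitochondrial dicarboxylate carrier, was at 931 and 871 in vehicle and at 678 and 664 in octanoate, a log2 change of -0.42 with an SE of 0.08 (limma adjusted p 0.000321). SLC25A1, which exports the citrate that ACLY cleaves, was at 7425 and 6309 in vehicle and at 6262 and 5664 in octanoate. Its log2 difference of -0.20 (limma adjusted p 0.0315) rested on single libraries, since it was -0.08 (adjusted p 0.484) without vehicle 1 and -0.13 (adjusted p 0.270) without octanoate 2. PGD, of the pentose phosphate route to NADPH, was the other gene called lower (-0.19, limma adjusted p 0.0129), a call lost without vehicle 1, octanoate 1 or octanoate 2 (adjusted p 0.137, 0.0581 and 0.0833). The mitochondrial malic enzyme gene ME2 was the gene called higher (0.21, limma adjusted p 0.00617), and its adjusted p was 0.0508 without vehicle 2. Both PGD and ME2 were named after their values were seen. ACSS2, which makes acetyl-CoA from acetate, had overlapping groups at 3448 and 3225 in vehicle and 3432 and 3424 in octanoate. The cytosolic malic enzyme gene ME1 was at 4552 and 4430 in vehicle and 4977 and 4880 in octanoate (limma adjusted p 0.0863, and 0.00837 with the replicate block). Without vehicle 1, 3 genes of the list were called in place of 5.

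Proteins that act on the synthesis enzymes or their control formed a list of 14 genes, with 13 tested, 4 called higher, 2 lower and a median of -0.04. MID1IP1, whose product promotes polymerisation and activity of acetyl-CoA carboxylase, was at 3487 and 3286 normalised counts in vehicle and at 4516 and 4267 in octanoate, a log2 change of 0.37 with an SE of 0.06 (limma adjusted p 4.59e-05). Its relative THRSP was at no more than 4.33 in any library and was not tested. TRIB3, a pseudokinase that brings a ubiquitin ligase to acetyl-CoA carboxylase and is also induced by stress, rose from 5079 and 4805 to 7236 and 6963, a log2 change of 0.52 with an SE of 0.06 (limma adjusted p 2.00e-07). The growth factor receptor gene FGFR4 rose by 0.63 on the log2 scale (SE 0.07, limma adjusted p 1.86e-07). Without vehicle 1 or without octanoate 1, 3 genes of this list were called in place of 6.

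The other elongases did not follow ELOVL6. Of the 5 further ELOVL genes, 4 were called higher, where 16.2% of all tested genes were. ELOVL3 was not called, at 9.69 to 16.7 normalised counts. ELOVL1, an elongase of very long saturated chains, was at 6841 and 6442 in vehicle and at 8084 and 7949 in octanoate, a log2 change of 0.27 with an SE of 0.06 (limma adjusted p 0.000784). ELOVL4, which also makes very long chains, was at 1483 and 1558 in vehicle and at 2178 and 1998 in octanoate, a log2 change of 0.46 with an SE of 0.07 (limma adjusted p 1.80e-05). Both octanoate libraries lay above both vehicle libraries in each of these genes. ELOVL2, an elongase of polyunsaturated chains, was at 347 and 304 in vehicle and at 378 and 426 in octanoate, a difference of 0.30 (limma adjusted p 0.0385). ELOVL7 was at 55.0 and 36.8 in vehicle and at 76.0 and 71.5 in octanoate, a difference of 0.70 (limma adjusted p 0.0248). The calls of these last 2 genes were weak: without vehicle 2 the adjusted p was 0.285 for ELOVL2 and 0.250 for ELOVL7, without octanoate 2 it was 0.284 and 0.0549, and for ELOVL7 it was 0.101 without octanoate 1. With DESeq2 on the recovered reads it was 0.218 for ELOVL2 and 0.247 for ELOVL7. The whole list of 11 elongases and enzymes of the elongation cycle had 4 called higher, 1 lower and a median of 0.13; 3 were called without vehicle 2 and 2 without octanoate 2.

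**Figure D5:**
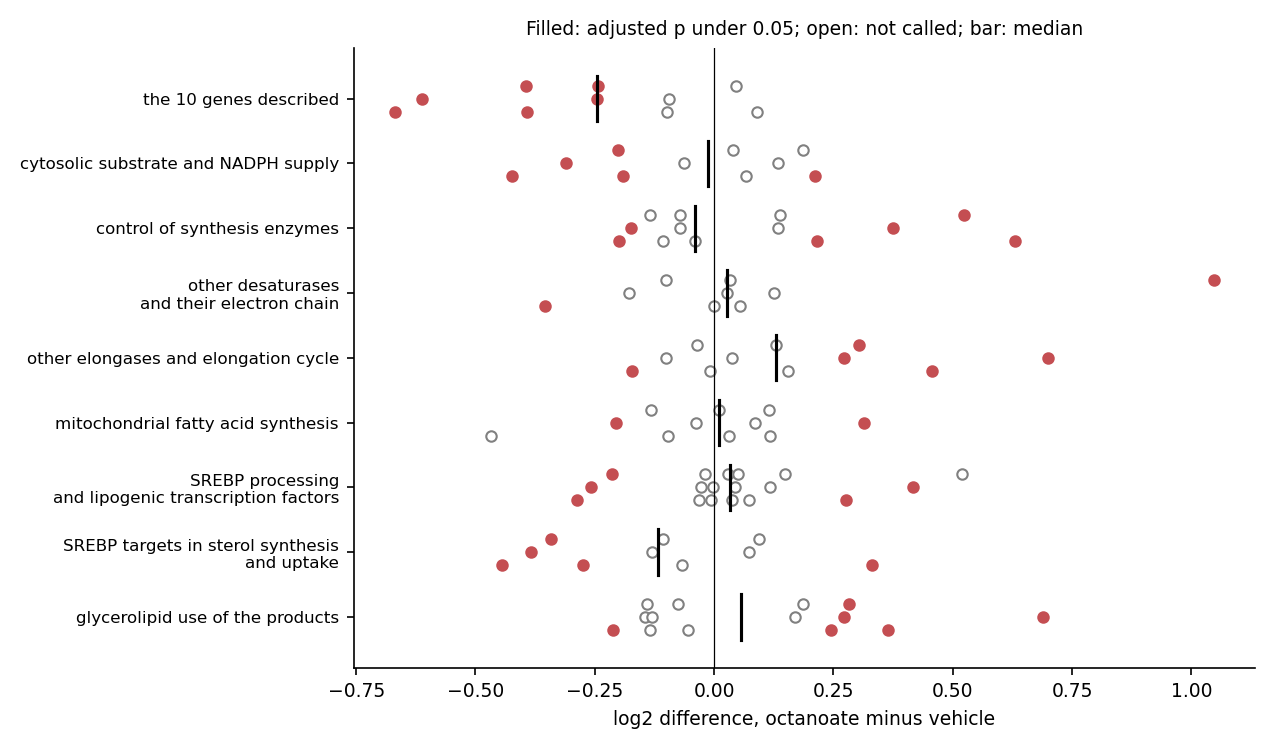
Log2 difference of each tested gene in the 8 pathway lists and of the 10 genes described, with filled points for an adjusted p under 0.05 and a bar at each median. The 10 genes have a median of -0.25, the sterol list one of -0.12 and the elongase list one of 0.13, and every list has called genes on both sides of 0 except the 10 genes, whose calls are all below it.

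Desaturases draw electrons from NADH through cytochrome b5 and its reductases. Of 9 tested genes for these and for other desaturases, 1 was called higher, 1 lower and 7 not called, with a median of 0.03. CYB5A and CYB5R3, named after their values were seen, were among those not called. Their groups overlapped, with log2 differences of 3.1e-05 and 0.05. CYB5B, a membrane cytochrome b5 of mitochondria, was at 12445 and 12131 normalised counts in vehicle and at 9659 and 9566 in octanoate, a log2 change of -0.35 with an SE of 0.06 (limma adjusted p 2.60e-05). The reductase gene CYB5R2 rose from 521 and 468 to 1008 and 1035, a log2 change of 1.05 with an SE of 0.09 (limma adjusted p 1.21e-09), the largest in these lists.

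Mitochondria hold a separate fatty acid synthesis route that makes the octanoyl precursor of lipoic acid. Of its 11 genes 1 was called higher, 1 lower and 9 not called, with a median of 0.01. AASDHPPT, which attaches the phosphopantetheine arm to carrier proteins, was at 6022 and 5925 normalised counts in vehicle and at 5221 and 5134 in octanoate (-0.21, limma adjusted p 0.00784), a call lost without vehicle 1 (adjusted p 0.057) or octanoate 2 (0.0672). HSD17B8 was at 332 and 321 in vehicle and at 438 and 376 in octanoate (0.31, limma adjusted p 0.0294), and its adjusted p was 0.0804 without vehicle 1, 0.133 without vehicle 2, 0.313 without octanoate 1 and 0.178 with DESeq2. Without vehicle 1 no gene of this list was called by limma, and without vehicle 2 there was 1.

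Fatty acids are esterified into glycerolipids, and this list of 14 genes had 5 called higher, 1 lower and 8 not called, with a median of 0.06. GPAT3, a glycerol-phosphate acyltransferase, was at 10497 and 9834 normalised counts in vehicle and at 15869 and 16899 in octanoate, a log2 change of 0.69 with an SE of 0.06 (limma adjusted p 2.04e-09). LPCAT3, which puts polyunsaturated chains into phospholipids, rose from 1676 and 1637 to 2028 and 2000, a log2 change of 0.28 with an SE of 0.07 (limma adjusted p 0.00213). The gene called lower was PNPLA3, a lipase-like target of SREBP-1, at 933 and 978 in vehicle and 809 and 842 in octanoate (-0.21, limma adjusted p 0.0461). That call was lost without any 1 of the 4 libraries (adjusted p 0.0848 to 0.225) and with DESeq2 (0.179). LPIN1, a phosphatidate phosphatase that is likewise a target, was at 4527 and 4517 in vehicle and at 4094 and 4140 in octanoate, and did not pass the test (limma adjusted p 0.0841), although it did with the replicate block (0.00869). With that block 11 genes of the list were called in place of 6, and without vehicle 2 only 3 were.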

How the data were processed

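RNA of 4 A375 libraries was analysed, 2 per group. Per the submitters' processing notes, bcl2fastq 2.17, Trim Galore, STAR 2.4, Picard, HTSeq 0.9.1 and DESeq2 were used with build hg38; the annotation and use of strand are not given in the sources used here. The deposited signal is, per the file's values, a read count per gene divided by 1 size factor per library: 100% of positive values were whole multiples of 1 value per library (tolerance 0.001 reads). A second deposited table gives the authors' mean signal, log2 fold change, test score and p-values.

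The members and lists were chosen with earlier results of these data known. The model was limma 3.58.1 (R 4.3.3), applied to log2(normalised count + 1), which understates changes of low genes, with an intensity trend, for genes with a mean of at least 10. Tests were two-sided and Benjamini-Hochberg adjusted over 20250 genes. Group was the only term, as replicate numbers are not explained. Genes named were the 10 members, 21 fixed relatives and the 2 called genes with the smallest adjusted p per list; others are marked, and some list genes are not reported here. GENCODE 29 supplied positions, exon lengths and overlaps, and blastn 2.17.0 shared sequence (at least 100 bases, 95% identity). RefSeq supplied promoters and older names of 2 genes. Tested on simulated counts for this comparison (19946 genes), limma found 57.4% of the genes given a log2 change of 0.5, and 8 of its 158 calls were false. Alternatives were other pseudocounts, filters, scalings and variance priors, a replicate block, GC and length correction, leaving out each library, edgeR 4.0.16 and DESeq2 1.42.0 on recovered reads and, added after seeing the data, annotated genes only.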

Additional observations from a re-analysis of the deposited data

How the results depend on the processing

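The 10 genes kept their direction under all 17 alternatives. FADS2 was between -0.74 and -0.60 and SREBF1 between -0.68 and -0.57 on the log2 scale, and both were called in every alternative. Without an intensity trend in the variance prior, 2 of the 10 genes were called (both lower), 4 genes of the pathway lists and 1625 of all genes. With every gene that had a read, 5 of the 10 were called (ACLY had an adjusted p of 0.0696), 18 list genes and 2595 of all genes. The cause of these changes was not tested. What a replicate number stands for is not stated in the labels. Deviations of same-numbered libraries had a correlation of 0.126 over 20250 genes and of 0.39 over the 9003 with a mean of at least 1000; with only 2 pairs, whether the numbers pair the libraries cannot be settled. With the replicate block 7 of the 10 genes and 8376 of all genes were called. With the block and GC and length trends removed together, 8 of the 10 and 58 list genes were called, and 53.6% of the 15163 genes. As 74.9% of tested genes have a GC content, this correction cannot serve as a check on the whole table, and is void there; all 10 genes have one. Of all called genes 54.1% were higher, against 67.4% without the intensity trend, 64.5% without vehicle 1 and 42.4% with the block and trends removed (52.6% for annotated genes alone, a setting chosen after seeing the data).

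Genes near 0 that were not called changed sign. ELOVL3 was 0.0049 with TMM factors and 0.0045 with edgeR, and from -0.37 (without vehicle 2) to 0.35 (without vehicle 1) with 1 library left out, 0.34 without octanoate 2. SREBF2 was 0.0085 with TMM factors, and from -0.070 (without vehicle 2) to 0.056 (without vehicle 1) with 1 library left out, 0.017 without octanoate 2. INSIG2 was -0.0039 with GC and length trends removed, with or without the replicate block, and from -0.075 (without vehicle 2) to 0.15 (without vehicle 1) with 1 library left out, -0.043 without octanoate 2. SCAP ran from -0.0075 (without vehicle 2) to 0.15 (without vehicle 1), and ACSS2 from -0.0085 to 0.088 on leaving out the same libraries. The 5 ratios kept their direction under every alternative run. The standard error of the 10 genes was between 0.06 and 0.08, so a difference that did not pass the test may still be one that 2 libraries a group could not resolve.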
